A study of Mus musculus with 6 samples.

Results

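Forkhead (Fox) genes encode transcription factors that share a winged-helix DNA-binding domain, and the E2A peaks whose nearest gene is one of them are described here across 5 peak lists. A peak was counted as a forkhead peak when the gene symbol given to it in the annotated list was Fox, then one letter from a to s, then digits. This rule took 293 of 91185 peaks and 28 gene symbols. The RefSeq table of mouse genes holds 44 forkhead genes in 19 subfamilies, so 63.6% of the family was named by at least 1 peak, against 52.1% of all protein-coding genes.

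E2A is the pair of basic helix-loop-helix proteins E12 and E47 that Tcf3 encodes by alternative splicing, and its binding was mapped by ChIP-seq, in which DNA bound by a protein is pulled down with an antibody and sequenced. The cells were neural stem cells from C57BL/6J mouse embryos of age E12.5. There was 1 E12 knockout (E12KO) sample, 1 E47 knockout (E47KO) sample and 3 wild-type (wt) samples. All were grown in the same proliferation medium with FGF-2 and EGF, each at 20 ng/ml, and were fixed with EGS and formaldehyde. An input sample was not analysed here. Each knockout has 1 library, so the genotypes were set side by side without a test, and the knockout values carry no replicate error. Whether the wt libraries stem from separate embryos or cultures is not in the labels, so the wt spread may be technical. Peak lists hold neither read totals nor RNA levels: the depth is unknown, and neither the knockouts nor the identity of the cells could be checked from them. A peak is tied to a gene only because that gene's start site is the nearest in the authors' annotation.

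Fox proteins act as tissue regulators, and several are known from the developing brain. Foxo factors restrain growth and guard stem cell quiescence when insulin signalling through Akt is low, and Foxj1 drives the making of motile cilia, including those of ependymal cells. Foxp1, Foxp2 and Foxp4 are repressors linked to neuronal differentiation, and Foxm1 activates mitotic genes. E2A itself binds E-boxes, short motifs of the form CANNTG. Those it prefers are CAGCTG, the same on both strands, and the motif CACCTG, which reads on the opposite strand as CAGGTG.

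The promoter windows of Foxp4, Foxp1 and Foxj2 are shown because these genes have promoter peaks and because the RefSeq transcript has the same length as the transcript in the peak lists, so that the start sites can be paired. Each holds the 250 bases before the start site, 5′ to 3′ on the gene's strand, from RefSeq on GRCm38.p6. Capitals mark these preferred core motifs, and the coordinates cannot be compared with the mm9 coordinates of the peaks.
Foxp4 (chr17:47924633-47924882, minus strand): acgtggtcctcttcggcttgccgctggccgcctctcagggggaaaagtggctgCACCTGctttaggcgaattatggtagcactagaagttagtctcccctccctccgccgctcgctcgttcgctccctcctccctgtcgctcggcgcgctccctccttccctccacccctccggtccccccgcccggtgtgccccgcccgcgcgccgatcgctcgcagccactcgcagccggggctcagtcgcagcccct
Foxp1, start of a shorter transcript (chr6:99028299-99028548, minus strand): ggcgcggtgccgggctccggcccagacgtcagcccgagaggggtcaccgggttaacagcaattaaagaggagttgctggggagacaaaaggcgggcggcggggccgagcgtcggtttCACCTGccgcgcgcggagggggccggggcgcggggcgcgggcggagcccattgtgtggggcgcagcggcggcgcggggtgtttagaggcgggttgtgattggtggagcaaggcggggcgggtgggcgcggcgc
Foxp1, start of the longest transcript (chr6:99520994-99521243, minus strand): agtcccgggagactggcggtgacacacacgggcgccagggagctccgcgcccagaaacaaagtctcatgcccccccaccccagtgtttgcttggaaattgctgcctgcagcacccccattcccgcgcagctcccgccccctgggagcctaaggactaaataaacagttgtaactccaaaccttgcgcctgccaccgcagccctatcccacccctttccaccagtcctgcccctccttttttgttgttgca
Foxj2 (chr6:122819934-122820183, plus strand): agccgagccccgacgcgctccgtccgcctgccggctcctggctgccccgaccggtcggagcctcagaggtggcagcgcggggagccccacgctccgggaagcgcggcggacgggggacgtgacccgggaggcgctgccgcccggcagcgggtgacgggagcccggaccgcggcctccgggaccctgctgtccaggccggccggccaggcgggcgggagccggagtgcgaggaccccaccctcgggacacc
The Foxp4 window holds 1 CACCTG that starts 197 bases before the start site. The window of the shorter Foxp1 transcript holds 1 CACCTG that starts 133 bases before its start site, and the windows of the longest Foxp1 transcript and of Foxj2 hold no core motif. Windows of genes with a promoter peak in some list numbered 9, and only the 2 just named held a core motif. Those of Foxj2, Foxj3, Foxk2, Foxn3, Foxo3 and the other Foxp1 starts held none. These 9 were matched to peaks by gene and not by start site, so a window need not lie at a peak. Several genes with promoter peaks had no window, among them Foxj1, Foxk1, Foxm1, Foxn2, Foxo4 and Foxp2. Of the 33 forkhead windows in the table, which cover 28 genes, 10 (30.3%) held a core motif on either strand, against 27.7% of all 32851 windows of the same length. Counted separately, CAGCTG was in 13% of all windows and the motif CACCTG in 17.2%. The looser CANNTG, which both of them match, was in 66.2%.

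Forkhead genes carried 81 peaks in E12KO, 68 in E47KO, and 26, 40 and 78 in wt replicates 1, 2 and 3. Those counts follow the lengths of the lists, which hold 25229 peaks in E12KO, 22176 in E47KO, and 6814, 12772 and 24194 in wt replicates 1, 2 and 3. As a share of its list, forkhead peaks made up 0.321% in E12KO, 0.307% in E47KO, and 0.382%, 0.313% and 0.322% in wt replicates 1 to 3 (0.339% ± 0.0375, SD, n = 3). The E12KO share lay inside the wt range and the E47KO share just below it. Of the 44 forkhead genes, 27 were named in E12KO, 23 in E47KO, and 12, 18 and 26 in wt replicates 1 to 3. These gene counts also rose with list length, and the matching share of all genes in each list is not given here.

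Close to their start sites forkhead genes were listed about as often as genes at large in the longer lists. Within 10 kb of the start site, 15 of the 44 genes (34.1%) had a peak in E12KO, where 34.3% of all protein-coding genes did. In E47KO there were 13 such genes (29.5%, against 29.1% of all). In wt replicates 1, 2 and 3 there were 8, 8 and 14 (18.2%, 18.2% and 31.8%, against 9.25%, 15.5% and 31% of all genes). The promoter share of forkhead peaks was lower than that of all peaks in every list: 22.2% against 27.5% in E12KO, 17.6% against 25.3% in E47KO, and 15.4%, 15.0% and 17.9% against 23.1%, 19.5% and 24.9% in wt replicates 1 to 3.

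**Figure D1:**
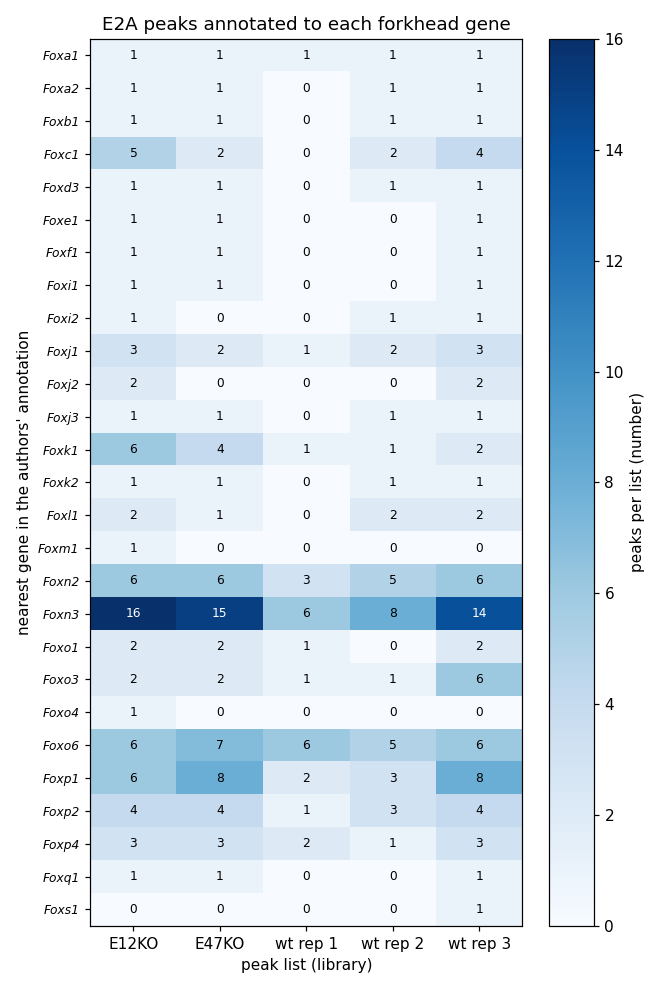
Number of E2A peaks annotated to forkhead genes with any peak, 1 gene not drawn, in each of the 5 lists (E12KO, E47KO and wt replicates 1 to 3); darker cells hold more peaks. Foxn3 has the most peaks in E12KO, E47KO, wt replicate 2 and wt replicate 3, and shares the lead with Foxo6 in wt replicate 1.

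Foxn3, which encodes a repressor of the FoxN group, had 16 peaks in E12KO, 15 in E47KO, and 6, 8 and 14 in wt replicates 1 to 3. Foxo6, a FoxO gene known for its expression in the brain, had 6 in E12KO, 7 in E47KO, and 6, 5 and 6 in the wt replicates. Foxo6 was thus close to fully listed even in the shortest list, while the Foxn3 count varied with list length. Foxa1, Foxj1, Foxk1, Foxn2, Foxn3, Foxo3, Foxo6, Foxp1, Foxp2 and Foxp4 were named in all 5 lists (10 genes, 22.7%, against 13.7% of all protein-coding genes). No list named 16 family members (36.4%, against 47.9% of all genes): Foxa3, Foxb2, Foxc2, Foxd1, Foxd2, Foxd4, Foxe3, Foxf2, Foxh1, Foxi3, Foxl2, Foxn1, Foxn4, Foxp3, Foxr1 and Foxr2.

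To set single peaks apart from repeated ones, overlapping wt peaks were merged (by at least 1 bp), and a merged region found in at least 2 of the 3 wt lists was called a wt consensus region. Forkhead genes had 83 merged wt regions. Of these, 41 (49.4%) were consensus regions, against 45.9% of all 26817 merged wt regions. They belonged to 17 of the 44 genes (38.6%, against 27.6% of all protein-coding genes). Within 10 kb of a start site, 9 genes had one (20.5%, against 16.7% of all): Foxj1, Foxj3, Foxk2, Foxn2, Foxo3, Foxo6, Foxp1, Foxp2 and Foxp4. A further 8 genes had consensus regions only farther away. The number of consensus regions depended on the longer wt lists, with 38 when wt replicate 1 was left out, 23 when replicate 2 was and 19 when replicate 3 was. Genes within 10 kb then numbered 8, 6 and 4.

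The consensus regions were unevenly spread over the family. Foxn3 held 8, Foxo6 held 6, Foxn2 held 5, Foxp2 held 4 and Foxp1 held 3, so that the first 4 of these genes held 23 of the 41. By subfamily FoxN had 13, FoxP 9 and FoxO 7, and FoxJ and FoxK together 5. FoxE, FoxF, FoxH, FoxM, FoxQ, FoxR and FoxS were among those with none.

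In the median, forkhead consensus regions lay farther from start sites than consensus regions at large, a difference given here without a test. Their median absolute distance was 37.9 kb, against 20.9 kb over all 12322 consensus regions. Within 10 kb lay 29.3% of them, against 38.2% of all, and beyond 100 kb lay 22.0%, against 17.9% of all. Promoters accounted for 8 of the 41 (19.5%, 95% Wilson interval 10.2 to 34.0%), against 22.4% of all, introns for 31.7% against 35.1%, and intergenic sequence for 39.0% against 35.6%. With wt replicate 1, 2 or 3 left out the promoter share was 18.4%, 17.4% or 5.26%. Intervals here cover counting error only.

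**Figure D2:**
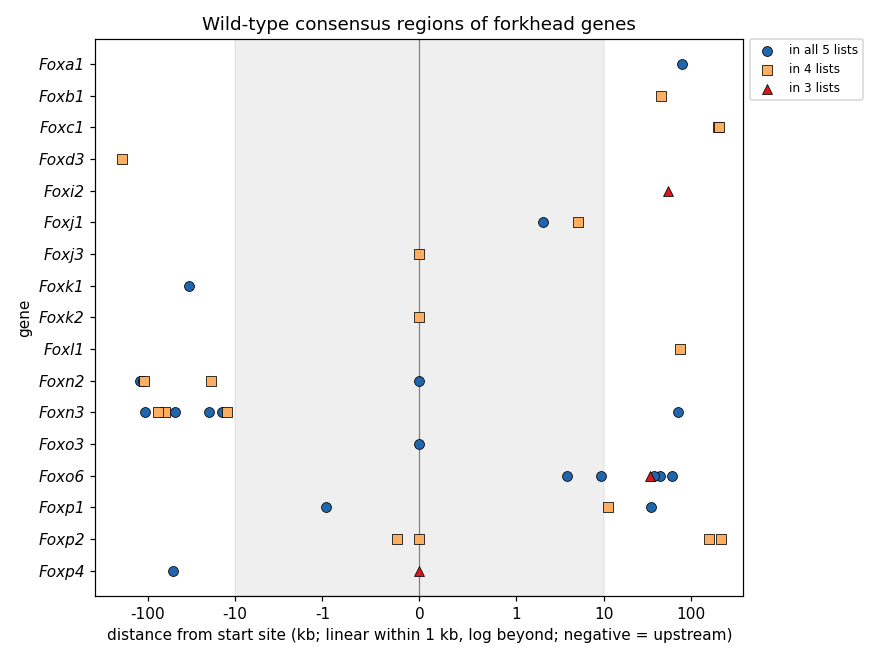
Signed distance in kb of each of the 41 forkhead wt consensus regions from the annotated start site (symmetric log axis, linear within 1 kb; negative values are upstream), 1 row per gene, with the symbol giving the number of lists that hold the region; the grey band marks 10 kb on either side. Most Foxn2 and Foxn3 regions lie upstream of the start they were measured to, 4 of those of Foxn3 being inside the gene, and no Foxo6 region lies upstream.

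In the knockouts nearly every forkhead consensus region had a peak. E12KO held 39 of the 41 (95.1%, Wilson 83.9 to 98.7%), against 96.6% of all consensus regions, so that 4.88% were missing against 3.36% of all. E47KO held 40 of 41 (97.6%, 87.4 to 99.6%), against 93.5% of all, with 2.44% missing against 6.5% of all. None was missing from both knockouts, against 1.87% of all. Among the wt lists, replicate 1 held 56.1%, replicate 2 held 92.7% and replicate 3 held all 41, so the knockout shares lay inside the range of the wt lists, which also define the regions. All 5 lists held 20 of the 41 (48.8%, 34.3 to 63.5%), against 33.7% of all.

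**Figure D3:**
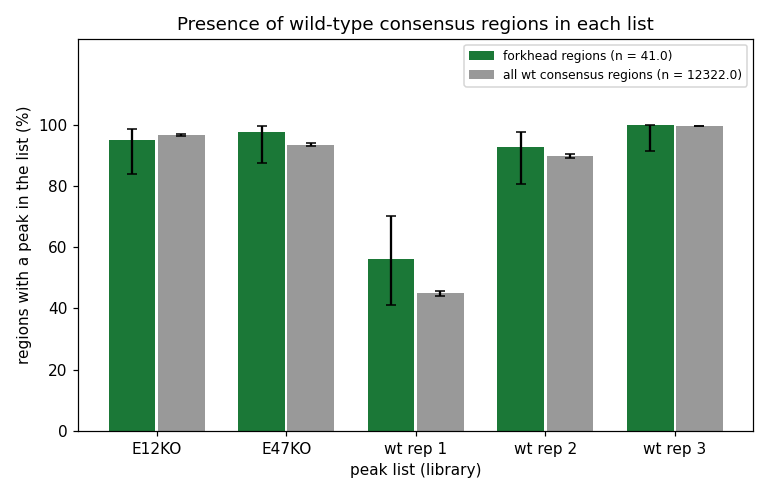
Percentage of wt consensus regions that overlap a peak in each list, for the 41 forkhead regions (green) and all 12322 regions (grey); bars start at 0 and error bars are 95% Wilson intervals, which cover counting error only. Both knockouts stand close to wt replicates 2 and 3, and wt replicate 1 is the low one for both sets; the wt lists also define the regions.

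The 3 consensus regions absent from a knockout were each held by only 2 of the 3 wt lists as well. In E12KO the missing ones were a region 33872 bp downstream of the Foxo6 start site (chromosome 4, 119925013 to 119925994, mm9 here and below) and the Foxp4 promoter (chromosome 17, 48061454 to 48062227). Both were in E47KO, wt replicate 1 and wt replicate 3 and neither was in wt replicate 2. In E47KO the missing one lay 54923 bp downstream of the start of Foxi2 (chromosome 7, 142656845 to 142657406), and it was in E12KO and in wt replicates 2 and 3 only. Every forkhead region found in all 3 wt lists was in both knockouts (20 of 20), as were 4151 of all 4228 such regions.

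FoxP genes had 9 consensus regions, 4 of them promoters, with a median distance of 11.4 kb. Foxp4, whose protein pairs with the other Foxp factors, carried its promoter peak from 679 bases upstream to 53 downstream of the start site in E47KO. In wt replicate 1 the peak ran from 441 upstream to 127 downstream, and in wt replicate 3 from 646 upstream to 96 downstream, so in all 3 lists it covered the Foxp4 window printed above. E12KO and wt replicate 2 listed no peak there. The fold enrichment, the authors' ratio of ChIP to background, is given for the wt replicate 1 peak of a region only and was 20.6 at the Foxp4 promoter, rank 445 of 6814, with the summit 162 bp upstream of the start. A second Foxp4 region, 51503 bp upstream (48113084 to 48114177), was in all 5 lists with 8.48-fold enrichment.

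Foxp1, a repressor also needed in lymphocytes, spans 596 kb on chromosome 6 in its longest transcript. In all 5 lists were a region in intron 1 of 19, 34742 bp into the gene (99435012 to 99436245, 9.71-fold), and one upstream of the start of the longest transcript (99471950 to 99473783, 10.7-fold). The nearest edge of the upstream peak was 222 bp before the start in E12KO and 1740, 1623 and 963 bp in wt replicates 1 to 3, while E47KO had 2 peaks touching the region, at 113 and 1258 bp. The peaks at 113, 222 and 963 bp carried the promoter label and the others did not. A separate promoter peak of wt replicate 3 (99470840 to 99471436) covered the start of the longest transcript itself. Peaks of both knockouts overlapped it. A second intronic region at 11351 bp was in every list but wt replicate 1. The start of the shorter transcript, whose window is printed above, was covered by a peak in E47KO and wt replicate 3 (98978290 to 98978784 in the latter). It was thus in 1 wt list only. The E12KO peak (98978303 to 98978979) overlapped both of these peaks but began just upstream of that start, and was measured to another Foxp1 start. Leaving out wt replicate 1 gave 7 FoxP consensus regions, leaving out replicate 2 gave 5 and leaving out replicate 3 gave 3.

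Foxp2, a gene tied to speech in humans and active in neurons, had 4 regions along 508 kb of chromosome 6. Its outer promoter (14850391 to 14851987) and an inner promoter 234 bp upstream of a shorter transcript (15134553 to 15135272) were in both knockouts and in wt replicates 2 and 3. So was a region in intron 5 of 14 (15297732 to 15298068), 162257 bp into the transcript. The last, in intron 12 of 14 (15358023 to 15358411), was in both knockouts and in wt replicates 1 and 3, with 8.04-fold enrichment. No Foxp2 region was in all 5 lists.

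FoxO genes had 7 consensus regions, and all 7 were in wt replicate 1, against 44.9% of all consensus regions. Foxo6 held 6 of them on chromosome 4, and its gene of 20.2 kb carried 2 in intron 1 of 1. The intronic region 3830 bp from the start (119955082 to 119956036) had 21.0-fold enrichment, and the one 9440 bp from the start (119949691 to 119950426) had 5.64-fold. The other 4 lay beyond the 3′ end of the gene within 28.4 kb, at 33872, 37866, 43795 and 61581 bp from the start. That at 37866 bp (119921346 to 119922059) had 21.1-fold enrichment, the highest of any forkhead peak and rank 424 of 6814. The remaining distal ones had 8.19-fold at 33872 bp, 6.96-fold at 43795 bp and 7.42-fold at 61581 bp.

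**Figure D4:**
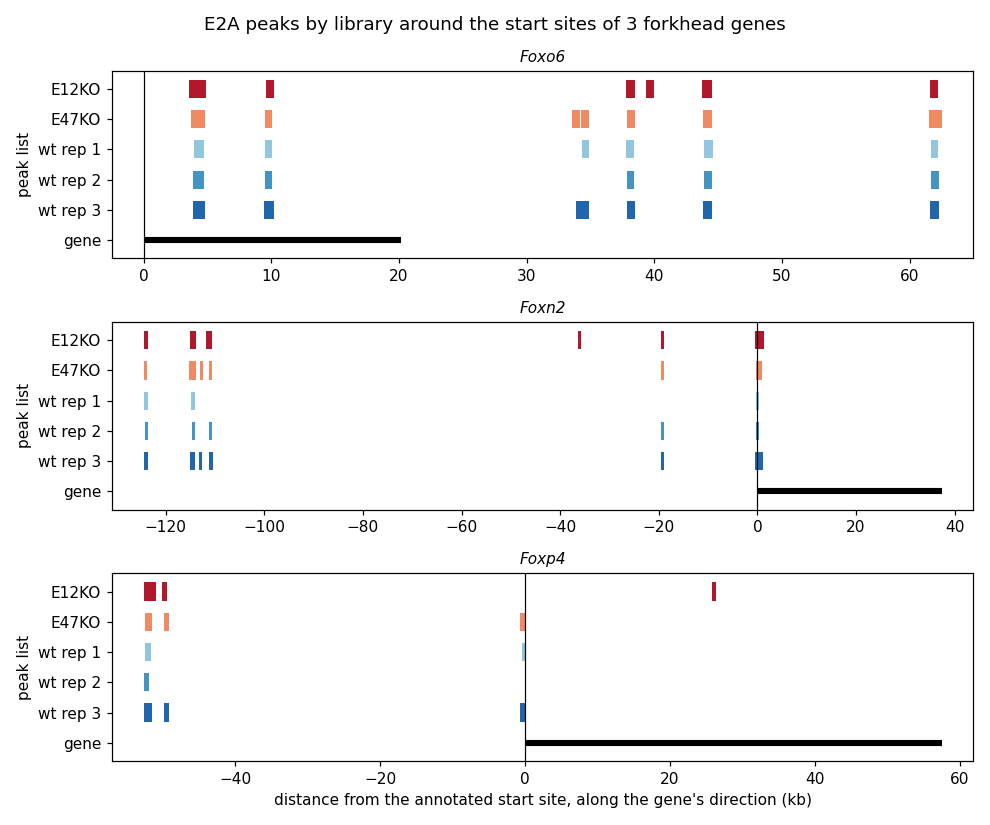
Peaks of each list around Foxo6, Foxn2 and Foxp4, with distance in kb from the annotated start site along the gene's direction, 1 row per list and the longest transcript as a black bar; narrow peaks are drawn wider than they are so that they can be seen. Foxo6 shows the same 5 positions in every list, a further one that E12KO and wt replicate 2 lack and 1 peak of E12KO alone, and Foxp4 shows a promoter peak in E47KO, wt replicate 1 and wt replicate 3.

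Foxo3, a FoxO factor that keeps adult neural stem cells quiescent, had its promoter region (chromosome 10, 41996301 to 41998321, 11.6-fold) in all 5 lists. The peak there was 4174 bp wide in E12KO and 3391 bp in E47KO, against 485, 976 and 2021 bp in wt replicates 1 to 3. The peaks of wt replicates 1 and 2 did not overlap each other and were joined only through that of wt replicate 3. In the knockouts 1 peak also covered a second start of Foxo3 that had a separate peak in wt replicate 3 (41995407 to 41995883). Foxo1 and Foxo4 had no consensus region.

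FoxN genes had 13 consensus regions, all of them present in both knockouts, as were 11337 of all 12322 consensus regions. Of the 13, 8 (61.5%) were in all 5 lists, against 33.7% of all. Upstream of the start they were measured to lay 11 of the 13, against 4517 of all 12322. Of these 11, 4 lay inside the Foxn3 gene. Foxn2 had 5 on chromosome 17. Its promoter (88839536 to 88841120, 10.3-fold) was in all 5 lists. The strongest, 123556 bp upstream (88715598 to 88716496), had 19.2-fold enrichment, and with those at 114059 bp (88725006 to 88726020, 6.03-fold) and 110387 bp (88728916 to 88729665) it formed a group within 14.1 kb. The third of this group and a region 19087 bp upstream (88820545 to 88820965) were in every list but wt replicate 1.

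The 8 Foxn3 regions were spread over 453 kb of chromosome 12, and none was a promoter. In intron 3 of 5, upstream of an internal start site, lay a group of 3 within 8.07 kb, at 12387 bp (100541898 to 100542314, absent from wt replicate 1), 14361 bp (100543872 to 100545286, 16.4-fold) and 19950 bp (100549396 to 100549964, 11.4-fold). The strongest lay in the same intron, 48402 bp upstream of that start (100577909 to 100578819, 19.4-fold). In intron 4 of 5, 70523 bp downstream, was a region with 7.26-fold enrichment (100458366 to 100459036). Farther out were regions 63975 bp upstream (100865767 to 100866516), 76322 bp upstream (100878114 to 100878393) and 107229 bp upstream (100909021 to 100910933, 6.38-fold), of which only the last was in wt replicate 1. The region at 63975 bp was labelled exon 1 of 2 of a transcript not matched to Foxn3. The distances of the 8 regions refer to different Foxn3 transcripts, since each peak was measured to the nearest start.

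Of the remaining near regions, Foxj1 had 2 on chromosome 11. One in exon 3 of 3, 2013 bp from the start (116193231 to 116194655, 8.90-fold), was in all 5 lists, and one 5138 bp from the start, just past the gene (116190476 to 116192065), was in all but wt replicate 1. The Foxj1 promoter itself had a peak in E12KO and wt replicate 3 only. The promoters of Foxj3 (chromosome 4, 119211676 to 119212975) and of Foxk2 (chromosome 11, 121120595 to 121121326) were each in both knockouts and in wt replicates 2 and 3. Foxk2 and its relative Foxk1 encode repressors of starvation and autophagy genes.

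Distant consensus regions only were found at Foxa1, Foxb1, Foxc1, Foxd3, Foxi2, Foxk1, Foxl1 and Foxn3. Foxa1, a pioneer factor of endoderm, had 1 region 78975 bp from its start in all 5 lists (7.83-fold), and Foxk1 had 1 at 33603 bp upstream in all 5 lists (5.03-fold). The Foxa1 region was labelled 3′ UTR, but its peaks lay 73.4 to 73.7 kb past the end of Foxa1, so the label is that of another gene. Foxc1 had 2, at 202146 and 212074 bp, both inside intron 7 of 10 of Gmds, which is a different gene. Foxb1, Foxd3, Foxi2 and Foxl1 had 1 each, and none of these 4 was in wt replicate 1.

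**Figure D5:**
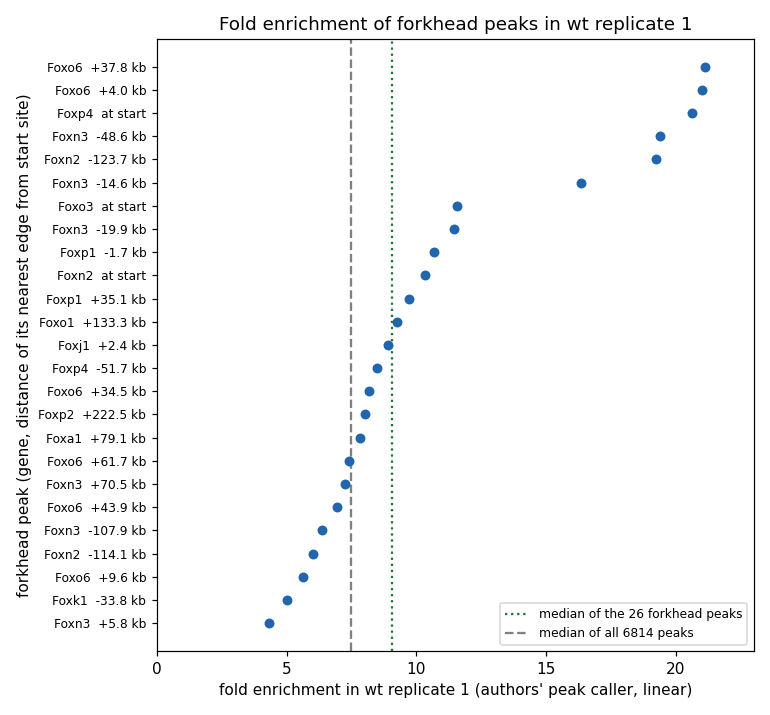
Fold enrichment (linear, as the authors' peak caller gave it) of the forkhead peaks of wt replicate 1, 1 row per peak (1 peak not drawn) with its gene and the distance of its nearest edge from the start site. The dotted line is the forkhead median of 9.08 and the dashed line the median of all 6814 peaks, 7.48, both over every peak; most forkhead peaks lie right of the dashed line.

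In the scores of wt replicate 1 the forkhead peaks were somewhat higher than the list. Their median fold enrichment was 9.08 (range 4.33 to 21.1), against 7.48 (1.69 to 106) over the list, their median −log10 q was 20.5 against 13.5, and their median pileup was 30.5 against 24. Of the 26, 18 (69.2%) exceeded the list median in fold. The 5 highest were 2 at Foxo6 and 1 each at Foxp4, Foxn3 and Foxn2. No replicate of these scores exists, so this is a description of 1 library.

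Regions in a single wt list numbered 42, of which 37 were in wt replicate 3, the longest wt list, 3 in wt replicate 1 and 2 in wt replicate 2. Of the 42, 28 had a peak in E12KO (66.7%, against 61.8% of all such regions) and 23 in E47KO (54.8%, against 51.4%). Both knockouts held 18 (42.9%, against 43.5%) and neither held 9 (21.4%, against 30.4%). Of the 37 in wt replicate 3, 18 (48.6%) were in both knockouts, against 50.5% of all regions of that replicate alone. Of the 44 family genes, 11 had peaks but no consensus region, among them Foxa2, Foxe1, Foxf1, Foxi1, Foxj2, Foxm1, Foxo1, Foxo4 and Foxq1. A peak in any list named 63.6% of the family and a consensus region 38.6%, against 52.1% and 27.6% of all protein-coding genes.

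Peaks in the knockouts that overlapped no wt peak formed 17 forkhead regions. Both knockouts held 4 of them (23.5%, against 22.8% of all such regions), E12KO alone 12 (70.6%, against 49.7% of all) and E47KO alone 1 (5.88%, against 27.5% of all). Within 10 kb of a start site, both knockouts and no wt list held the Foxk1 promoter (chromosome 5, 142877134 to 142878565) and a Foxn3 promoter (chromosome 12, 100631185 to 100631902). Promoters were 7 of the 17 (41.2%, against 32.5% of all). The count in both knockouts was 4 without wt replicate 1 or 2 and 20 without wt replicate 3, the only wt list comparable in length to the knockout lists. Promoters held by E12KO alone included those of Foxm1 (chromosome 6, 128312333 to 128313757) and Foxo4 (chromosome X, 98449437 to 98450071), 2 genes picked out after their values were seen. They also included Foxn3 promoter regions on chromosome 12, at 100800706 to 100801229 and 100801515 to 100802207.

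Genes that work with forkhead factors were taken as 5 lists, and a member was counted when it had a wt consensus region within 10 kb of its start, as 16.7% of all protein-coding genes did. Of the regulators of FoxO activity in the insulin and Akt pathway, 9 of 20 (45.0%) were counted. Each of the 9 had a peak in both knockouts, as did 11337 of all 12322 consensus regions. The latter are regions at any distance and not genes. Of FoxO target genes 10 of 14 (71.4%) were counted, and of those with a wt replicate 1 peak the strongest by −log10 q was Txnip, an inhibitor of thioredoxin (7.76-fold). All 10 had an E12KO peak there, and all but Sesn1, a stress-response gene, an E47KO peak. FoxM1 targets numbered 2 of 12 (16.7%), the mitotic genes Birc5 and Nek2, whose promoter regions were not in wt replicate 1 and so have no score.

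Co-repressors and other partners of FoxP and related forkhead repressors numbered 7 of 12 (58.3%), and of those with a wt replicate 1 peak the strongest was the promoter of the Groucho family gene Tle3 (37.5-fold). Genes of multiciliated cells, the cells in which Foxj1 acts, numbered 4 of 12 (33.3%): Ccno, Rfx1, Rfx3 and Rfx4. Rfx4 was the only one of them with a wt replicate 1 peak, at its promoter (5.64-fold), so their strengths could not be ranked. No counted member of these 5 lists lacked an E12KO peak, which 96.6% of all consensus regions had. That share counts regions at any distance, while the members are genes with a region within 10 kb. The lists hold well-studied genes and were chosen with earlier results of these data known. They were not matched to other genes for length or expression, and were given no test.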

How the data were processed

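MACS2 2.1.0, BWA 0.7.13 and Picard 1.119 are named with the mm9 genome in the submitters' processing notes. Their settings and the thresholds, which may differ between lists, are not stated there (not given in the sources used here). Peaks were deposited per library, not pooled, with the nearest gene and its distance per the file headers. For wt replicate 1 alone the deposited table holds fold enrichment (a ratio), −log10 p, −log10 q and pileup (a coverage signal). Its distances run to the farthest edge of the peak (5963 of 5963 nonzero ones), those of the other 4 lists to the nearest edge (84371 of 84371 peaks). It also numbered introns in reverse in 875 of 1831 overlapping intronic pairs, so intron numbers and distances of consensus regions came from the longest wt list that holds the region. Of 12140 gene identifiers, 12078 matched RefSeq.

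Overlaps needed 1 bp and consensus regions 2 of 3 wt lists; shares have 95% Wilson intervals (Python 3.11.15, pandas 2.3.3, statsmodels 0.14.6). Region merging was tested on simulated data whose sites lay far apart, with a single peak per list, so chained or split peaks were not tested. Members and gene lists were chosen with earlier results of these data known. Sites were given for genes with a consensus region within 10 kb, the 5 genes with most regions, regions missing from a knockout and near regions in both knockouts only; in each gene list the strongest member was named. Values of some genes are not reported here, although the counts include them. Alternatives were the consensus rule, each wt replicate left out, 50% overlap, −log10 q of at least 5, gene assignment, distance limit and the middle of the peak. The input was not used.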

Additional observations from a re-analysis of the deposited data

How the results depend on the processing

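Requiring all 3 wt lists left 20 forkhead regions of 9 genes, 5 genes within 10 kb and 3 FoxP regions. Of these regions 100% were in E12KO and 100% in E47KO, and 4151 of all 4228 such regions were in both knockouts. With no distance limit 17 genes were counted, and with 2 kb 7 genes. Leaving out 1 wt replicate at a time gave 19 to 38 consensus regions, 8 to 17 genes, 4 to 8 genes within 10 kb, 3 to 7 FoxP and 5 to 7 FoxO regions. The share in E12KO then ranged from 91.3% to 100%, the share in E47KO from 97.4% to 100%, the promoter share from 5.26% to 18.4%, and the median distance from 34742 to 40830.5 bp. Forkhead regions that both knockouts held without any wt peak ranged from 4 to 20. Of 73 values under 10 alternatives, 53 stayed within 1.5 times the count, within the interval of the share or within the replicate spread of the distance. A 50% overlap, −log10 q of at least 5 in wt replicate 1, and the gene of the longest list changed none of the values. Distances from the middle of the peak gave 9 genes within 10 kb and a median of 38193 bp. No paired analysis was possible because no result comes from a test and the labels give the knockouts no replicate number. The lists differ widely in length, so an absent peak shows no loss of binding.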
